A study of Mus musculus with 8 samples.

Results

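The replication-dependent histone genes are the genes whose NCBI symbol or synonym begins with Hist1h, Hist2h, Hist3h or Hist4h. In the RefSeq annotation 70 mouse genes carry such a name, and 68 of them were among the 23403 genes of the count table. The other 2, Hist1h2aj and Hist1h2al, are annotated as pseudogenes. The 68 genes comprised 6 of class H1, 18 of H2A, 19 of H2B, 12 of H3 and 13 of H4. RNA-seq was compared between 2 libraries of Hepa-1 cells, an established mouse hepatoma line, exposed to 25 µM Cr(VI) as CrK2O4 for 90 minutes and 2 libraries of control cells that received no chromium. The labels of the RNA-seq controls do not say to which chromium regimen they belong, and nothing says that replicates came from separate cultures, so the p-values measure the spread between these libraries, which may be technical. FAIRE-seq, which sequences DNA that is not crosslinked to protein, was done with 1 library each of cells given 25 µM Cr(VI) for 90 minutes, of cells passaged 20 times with 0.5 µM Cr(VI), and of the control of each. No allele or transgene was labelled in any group.

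The core histones H2A, H2B, H3 and H4 form the protein spool of the nucleosome, and H1 histones bind the DNA that links one nucleosome to the next. Dividing cells make most of these proteins in S phase from clustered, mostly intronless genes, and their mRNAs end in a conserved stem-loop instead of a poly(A) tail. The stem-loop is bound by SLBP, NPAT drives transcription of the genes at the start of S phase, and the mRNAs are degraded quickly when DNA synthesis stops.

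The genes lie in 4 places in the mm10 genome. The Hist1 cluster spans chr13:21715711-23934913 and held 54 of the genes, the Hist2 cluster spans chr3:96219885-96270192 and held 10, the Hist3 cluster spans chr11:58948911-58955192 and held 3, and Hist4h4 stands alone at chr6:136803993-136804431. Many copies within a class share long stretches, and the most widely shared stretch of 30 bases in the transcripts of each class is shown as the extreme of this. These stretches come from the RefSeq transcripts on GRCm38.p6 (mm10) and are given at one gene of each class.
H1, Hist1h1a, chr13:23763934-23763963, + strand: acgatgtggagaagaacaacagccgcatca
H2A, Hist1h2aa, chr13:23934720-23934749, + strand: gccatccgcaacgacgaggagctcaacaag
H2B, Hist1h2ba, chr13:23933884-23933913, − strand: ctggcgcattacaacaagcgctcgaccatc
H3, Hist1h3a, chr13:23762132-23762161, − strand: aagctgccgttccagcgcctggtgcgcgag
H4, Hist1h4a, chr13:23760936-23760965, − strand: aacgtgatccgcgacgccgtcacctacacg
The H1 stretch occurred in 5 of the 6 H1 genes, the H2A stretch in 17 of 18 genes and at 22 positions of the genome, and the H2B stretch in 18 of 19 genes. The H3 stretch occurred in all 12 H3 genes, and the H4 stretch in 11 of 13 H4 genes.

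At 50 bases, the number of sequencing cycles the methods give, sharing joined most core histone genes of a class and 3 of the 6 H1 genes. Linking genes that had any 50-base stretch of their transcripts in common gave 1 group of 18 H2A genes, 1 of 15 H2B genes, 1 of 12 H3 genes and 1 of 12 H4 genes, besides 1 of the H1 genes Hist1h1c, Hist1h1d and Hist1h1e and 1 of Hist3h2ba and Hist3h2bb. Only 6 genes shared no such stretch with another, namely Hist1h1a, Hist1h1b, Hist1h1t, Hist2h2bb, Hist2h2be and Hist4h4. The share of a gene's 50-base stretches found once in the genome ranged from 0% to 100%, and it was at least 50% in 30 of the 68 genes. Hist1h2ao and Hist1h2ap, in which 0% of stretches were unique, had the same count in each of the 4 libraries, and so had Hist1h2bq and Hist1h2br. Hist2h3c1 and Hist2h3c2, also with 0% unique stretches and 97.6% and 100% of their stretches in common with the other, had unequal counts (335 and 384 against 235 and 285 in the controls). Another 6 H2A genes of the Hist1 cluster, Hist1h2ab, Hist1h2ad, Hist1h2ae, Hist1h2ag, Hist1h2ah and Hist1h2ai, had 429 to 440 counts in control replicate 1 and 209 to 220 in Cr(VI) replicate 2. How reads with several positions were treated is not given in the sources used here. The values of genes with few unique stretches therefore cannot be assigned to one copy, and a read may stand in the counts of several genes.

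The ends of the transcripts bear on what a library made from poly(A) RNA holds, since the methods name poly(A) extraction. A 16-base pattern, GG, any 2 bases, CT, a loop of any 4 bases, AG, any 2 bases and CC, was searched in the transcribed strand, and the forms found in 65 of the 68 genes are shown because they differ between the classes. Capitals mark the loop.
H1, H2A, H2B and H3 (41 genes): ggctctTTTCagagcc
H1, H2A, H2B and H3 (9 genes): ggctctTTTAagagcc
H4 (8 genes): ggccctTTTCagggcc
H4 (Hist1h4i and Hist2h4): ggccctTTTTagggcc
H4 (Hist1h4b and Hist1h4j): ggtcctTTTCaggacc
Hist1h4a, Hist1h3g and Hist2h2ac each had another loop or stem. Within the last 100 bases, 64 of the 74 curated member transcripts (86.5%) held the pattern, against 34 of 45682 transcripts of other genes (0.0744%). The polyadenylation hexamer AATAAA stood in the last 50 bases of 3 member transcripts (4.05%), those of Hist2h2be and the longer transcripts of Hist1h2bc and Hist1h2bp, against 60.4% of other transcripts. No stem-loop pattern was found in any transcript of Hist2h2be, Hist1h2an or Hist3h2bb. The transcripts of 2121 bases of Hist1h2bq and Hist1h2br had no pattern either, and had 2 hexamers outside the last 50 bases. Those of 2480 and 2506 bases of Hist1h2be, also with 2 such hexamers, ran 1861 bases past the pattern, and that of Hist1h3e ran 428 bases past it. Which transcripts of a gene gave its counts was not tested. The members took 0.0916% and 0.0953% of all counts in the control libraries and 0.0322% and 0.0300% in the treated libraries. Counts of such genes cover only the RNA that passed the selection, so that a change in histone mRNA and a change in the part of it recovered with poly(A) RNA cannot be told apart here.

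The total counts ranged from 32319676 to 37696116 per library, and the 2 treated libraries were less alike (Pearson's r of log2 CPM across 12013 genes, which are not independent replicates, 0.967) than the 2 controls (0.998). Of all 13619 genes with enough counts to be tested, 1548 (11.4%) differed by more than 2-fold between the treated libraries, and of the tested members 4 of 61 did, Hist3h2a, Hist1h4a, Hist1h4h and Hist1h4m. The hepatoma markers Alb, Afp, Trf and Foxa2 were well counted, whereas Apoa1 had at most 9 counts and Hnf4a at most 15. Among markers of other cell types, Ptprc, Cd3e and Cdh5 had 0 to 3 counts and Col1a2 had 0 to 5, while the macrophage marker Cd68 had 270 and 324 counts in the controls and 172 and 639 in the treated libraries, and the fibroblast marker Col1a1 had 7066 to 10547 counts. Of 4 fibroblast markers, Dcn rose (log2 fold change 1.16 ± 0.14 SE, adjusted p = 0.0362, edgeR). Pdgfra went the other way, with 450 and 506 counts in the controls and 366 and 226 in the treated libraries (−0.47, adjusted p = 0.223, edgeR). The list, mostly Dcn and Col1a1, summed to 652 and 663 CPM in the controls and 1204 and 1370 CPM in the treated libraries. Of 3 endothelial markers, Pecam1 rose from 17 and 19 counts to 60 and 65 (adjusted p = 0.0438, edgeR), with the list at 0.633 and 0.691 against 1.92 and 2.35 CPM. Of 9 hepatoma markers Alb and Ttr rose, and the list went from 2202 and 2265 to 5309 and 5861 CPM. Their part in the histone results was not tested.

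Of the 68 histone genes, 61 passed the filter on low counts, and 21 of these fell after 25 µM Cr(VI) at an adjusted p under 0.05 (edgeR's quasi-likelihood test), while 0 rose. Among all tested genes 4.63% passed this threshold, 2.85% lower and 1.78% higher in treated cells, against 34.4% of the tested members lower. The members are not independent measurements, so the counts of members in this paragraph are descriptions only. Of the 21, 15 were the H2B genes of 1 group with shared stretches, among them Hist1h2bq and Hist1h2br with the same counts. At an unadjusted p under 0.05, 40 members were lower, against 15.1% of all tested genes, and 0 were higher, against 15.6%. DESeq2 called 34 members lower and 0 higher, against 7.46% of all genes called lower and 7.76% higher. Without Cr(VI) replicate 1 edgeR called 41 members lower and 1 higher, and without Cr(VI) replicate 2 it called 57 lower and 2 higher, but the spread then came from the control pair alone and 77.6% and 67.2% of all genes passed. The median log2 fold change over the 61 members was −0.89, beside −0.0047 over all tested genes, and 59 of the 61 values were below 0. Both treated libraries lay below both controls in 56 of the 61 (91.8%), against 34.0% of all tested genes, and above both controls in 1, against 32.2%. In bulk RNA, fewer cells in S phase and less histone mRNA per cell cannot be told apart.

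**Figure D1:**
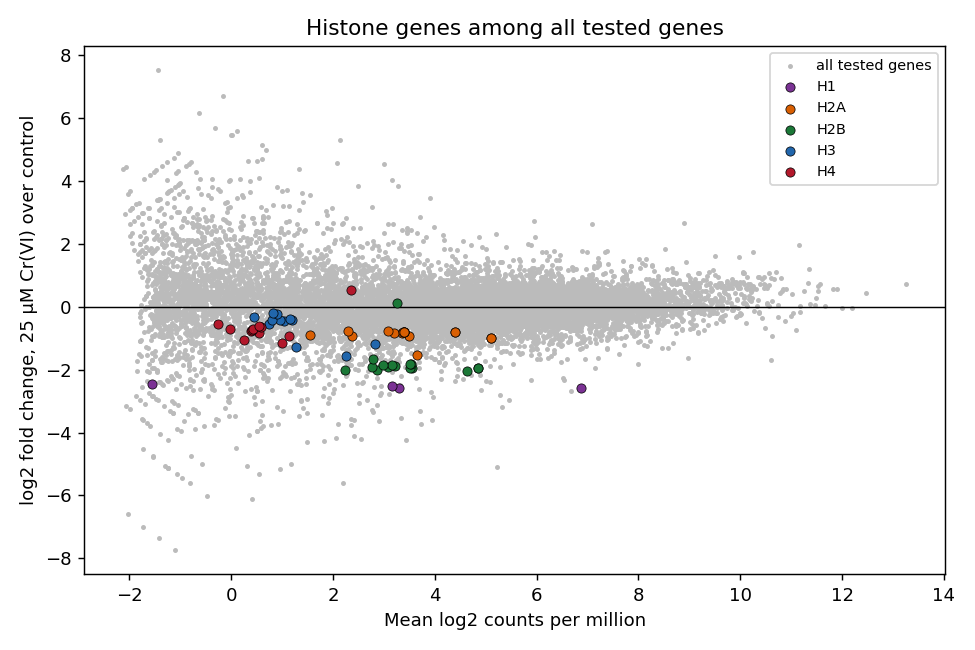
Each point is a tested gene, with its mean log2 CPM on the x axis and its log2 fold change, 25 µM Cr(VI) over control (2 libraries each), on the y axis. Grey points are all 13619 tested genes and coloured points the 61 histone genes by class, of which 59 lie below the line at 0.

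By class, linker histone genes had the lowest fold changes, H2B genes followed, and H2A, H3 and H4 genes lay nearer to 0. The median log2 fold changes were −2.56 for 4 tested H1 genes, −1.91 for 16 H2B genes, −0.82 for 17 H2A genes, −0.72 for 12 H4 genes and −0.43 for 12 H3 genes. Genes past the threshold numbered 3 in H1, 15 in H2B, 2 in H2A, 1 in H3 and 0 in H4, all lower. Summed over the genes of a class, H1 stood at 16.6% of its control level, H2B at 28.8%, H2A at 53.1%, H3 at 57.6% and H4 at 72.0%. The order of H3 and H4 in these sums is the reverse of that in the medians. Hist4h4 alone, with a log2 fold change of 0.52, gave 182 and 191 of the 449 and 589 H4 counts in the treated libraries. In the controls it gave 151 and 156 of 776 and 952. Without Cr(VI) replicate 1 the log2 ratio of the H4 sum went from −0.47 to −0.20 and that of H3 from −0.80 to −0.59, and without Cr(VI) replicate 2 they were −0.81 and −1.03, the latter below the −0.94 of H2A. These sums may hold a read several times where copies are identical, and differences between classes were not tested.

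**Figure D2:**
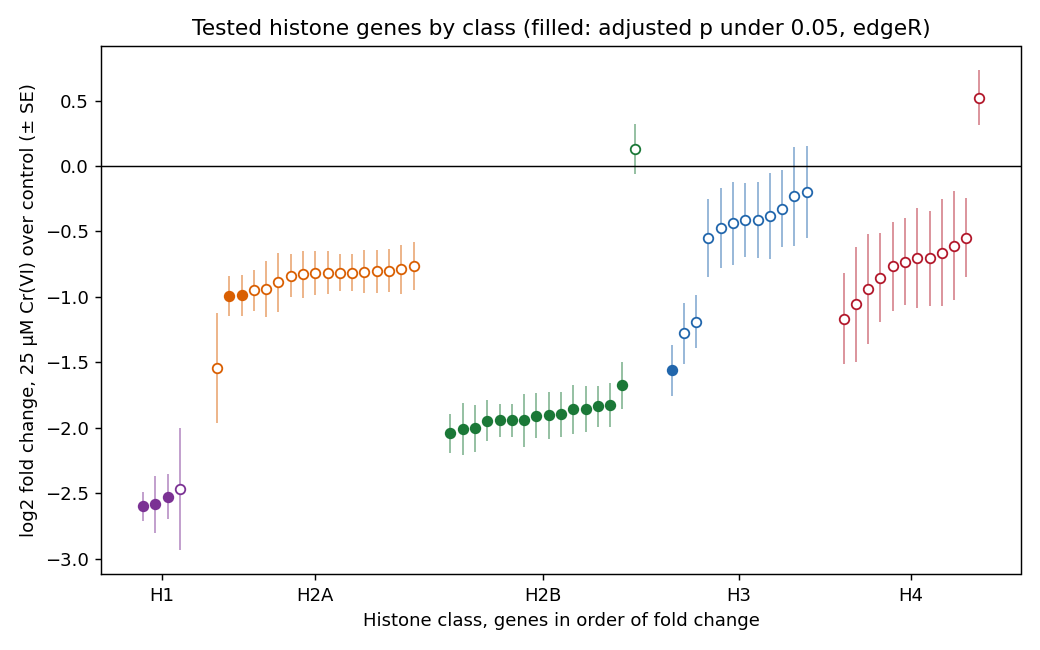
The y axis gives the log2 fold change, 25 µM Cr(VI) over control, of each of the 61 tested histone genes, with bars of ± 1 SE from edgeR (2 libraries per group). Genes are ordered within their class along the x axis, and filled points mark the 21 genes with an adjusted p under 0.05, of which 15 are H2B genes.

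The H1 genes encode linker histones, and Hist1h1c (chr13:23738807-23739531, 1 exon) had the most counts of the members. It had 6852 and 7993 counts in the controls and 1100 and 975 in the treated libraries. In CPM (counts scaled to the library total with TMM factors) this was 201 ± 5.20 in control and 33.1 ± 0.813 in treated cells (mean ± SD, n = 2), a level 6.07-fold lower. Its log2 fold change of −2.60 ± 0.11 (SE) was the lowest of the 61 members (adjusted p = 0.0244, edgeR), and 80.9% of its 50-base stretches were unique. Hist1h1d had 575 and 658 counts in the controls and 107 and 69 in the treated libraries, a log2 fold change of −2.58 ± 0.22 (adjusted p = 0.0282, edgeR). Hist1h1e had 523 and 590 counts in the controls and 89 and 75 in the treated libraries, a log2 fold change of −2.53 ± 0.17 (adjusted p = 0.0282, edgeR). Both treated libraries lay below both controls in each of the 3 genes, as they did in 34.0% of all tested genes. Hist1h1a, whose stretches were all unique, had 15 and 19 counts against 2 and 3, and its log2 fold change of −2.47 ± 0.47 did not pass the threshold (adjusted p = 0.0619, edgeR). Hist1h1b and the testis-specific Hist1h1t had at most 6 counts in a library and were not tested.

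H2B pairs with H2A in the nucleosome, and all 15 H2B genes of the Hist1 cluster fell, with log2 fold changes between −2.04 and −1.68. Hist1h2bc (chr13:23684199-23692480, 2 transcripts) had 1333 and 1590 counts in the controls and 301 and 298 in the treated libraries, and changed by −2.04 ± 0.15 on the log2 scale (adjusted p = 0.0282, edgeR). Hist1h2bq and Hist1h2br, which the counts do not separate, had 1552 and 1836 counts in the controls and 404 and 344 in the treated libraries each, with a log2 fold change of −1.94 ± 0.12 (adjusted p = 0.0282, edgeR). The treated libraries lay far below the controls and near each other in these genes. Hist1h2bl had 630 and 737 counts against 160 and 141 (log2 fold change −1.95), and Hist1h2bf 416 and 437 against 97 and 84 (−2.00). Hist1h2bj had 449 and 530 counts against 123 and 99 (−1.91), and Hist1h2bm 377 and 409 against 93 and 85 (−1.91). Their adjusted p-values in edgeR lay between 0.0282 and 0.0312. Hist1h2ba, which the gene Gm33516 overlaps, encodes the testis-specific H2B. Its 261 and 285 control counts against 60 and 55 treated counts gave −2.01 (adjusted p = 0.0317, edgeR). However, 33.9% of its stretches also occur in Hist1h2bj, and 14 members share some with it. Its call was lost without either control library (adjusted p = 0.0683 and 0.0593, edgeR), as was that of Hist1h2bb (0.108 and 0.102), and that of Hist1h2bm without control replicate 1 (0.0567). Over all transcripts of a gene, the highest share of unique stretches among the fallen H2B genes was that of Hist1h2be (chr13:23583670-23621124), at 88.4%. This share includes its longer transcripts, which run 1861 bases past the stem-loop pattern. The share without them was not computed, so 88.4% does not show that its counts belong to this copy. Hist1h2be had 603 and 721 counts in the controls and 138 and 152 in the treated libraries. Its log2 fold change was −1.94 ± 0.20 (adjusted p = 0.0317, edgeR), and the gene Gm33387 overlaps it.

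Outside the Hist1 cluster, the H2B gene Hist2h2be (chr3:96221072-96223738, 1 exon of 2667 bases) had other values than those genes and was chosen after its values were seen. It had 332 and 337 counts in the controls and 369 and 259 in the treated libraries, so that the groups overlapped. Its log2 fold change was 0.13 ± 0.19 (adjusted p = 0.677, edgeR), and whether this differs from the Hist1 genes was not tested. Without Cr(VI) replicate 1 its log2 fold change was −0.0090 (adjusted p = 0.943, edgeR), and without Cr(VI) replicate 2 it was 0.27 (adjusted p = 0.0142, edgeR). Its transcript has a polyadenylation hexamer near its end and no stem-loop pattern, and 99.2% of its stretches were unique. The longer transcripts of Hist1h2bc and Hist1h2bp that end near a hexamer have no stem-loop pattern either. Each of these genes also has a shorter transcript with the pattern, of 469 and 456 bases. Both genes fell, but which transcript gave their counts was not tested. Hist2h2bb, Hist3h2ba and Hist3h2bb had at most 8 counts in a library and were not tested.

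**Figure D3:**
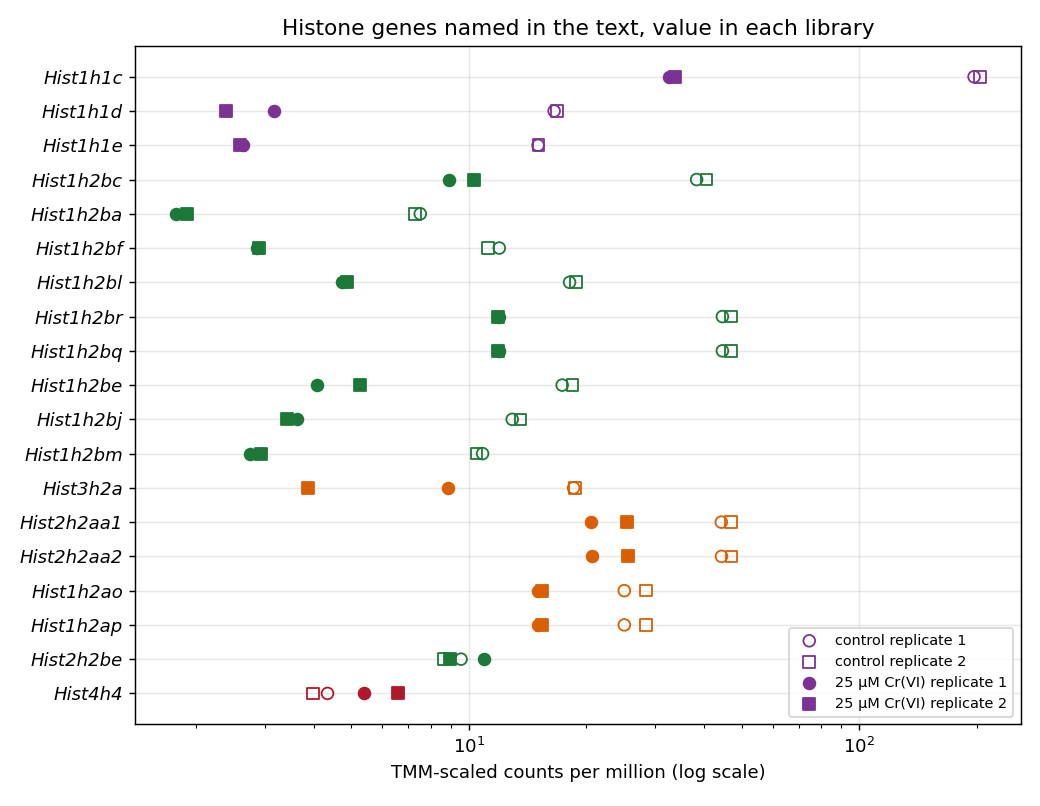
The x axis gives TMM-scaled CPM on a log scale, and each line holds the 4 libraries of one histone gene, open symbols for control and filled for 25 µM Cr(VI), coloured by class (purple H1, green H2B, orange H2A, red H4). In every gene shown except Hist2h2be and Hist4h4 both treated libraries lie below both controls.

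H2A genes encode the partner of H2B and lay closer to their control level. Their class sum was 296 ± 18.7 CPM in control and 157 ± 3.45 CPM in treated cells, beside 306 ± 5.08 and 88.4 ± 1.96 CPM for H2B (mean ± SD, n = 2). Hist2h2aa1 (chr3:96245497-96246052) had 1542 and 1838 counts in the controls and 694 and 735 in the treated libraries. Its log2 fold change was −0.99 ± 0.16 (adjusted p = 0.0486, edgeR), and that of its near copy Hist2h2aa2, which had 1544 and 1841 against 698 and 740 counts, was −0.99 ± 0.16 (adjusted p = 0.0494, edgeR). Unique stretches made up 3.94% and 9.14% of these genes, so they are not independent of each other. Both calls were lost with upper-quartile normalization (adjusted p = 0.0509 and 0.0512, edgeR) and without either control library (0.190 to 0.270, edgeR).
The 12 tested H2A genes of the Hist1 cluster ran from −0.95 to −0.76 on the log2 scale and 0 of them passed, although 12 had an unadjusted p under 0.05 (edgeR) and DESeq2 called 10. The identical Hist1h2ao and Hist1h2ap had 870 and 1112 counts in the controls and 508 and 446 in the treated libraries each (−0.81 ± 0.14, adjusted p = 0.0576, edgeR). Hist3h2a (chr11:58954685-58955192), which overlaps Trim17, had 645 and 730 counts in the controls but 299 and 112 in the treated libraries, and the distance between the treated libraries left its log2 fold change of −1.55 ± 0.42 above the threshold (adjusted p = 0.104, edgeR; 0.00148, DESeq2). It ran from −2.26 without Cr(VI) replicate 1 to −1.08 without Cr(VI) replicate 2. Hist1h2aa had at most 6 counts in a library and was not tested.

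H3 and H4 form the tetramer at the centre of the nucleosome, and 1 of 12 tested H3 genes and 0 of 12 tested H4 genes passed. Hist2h3c2 (chr3:96238479-96239127) had 235 and 285 counts in the controls and 78 and 71 in the treated libraries and was the only H3 gene to pass (log2 fold change −1.56 ± 0.20, adjusted p = 0.0374, edgeR), a call lost without either control library (0.175 and 0.229). Its neighbours Hist2h3b and Hist2h3c1 changed by −1.28 (adjusted p = 0.0584) and −1.19 (adjusted p = 0.0541, edgeR). These 3 genes of the Hist2 cluster shared most of their sequence, with 0% to 22.7% of stretches unique. The 9 H3 genes of the Hist1 cluster ran from −0.55 to −0.20, and 0 of them passed (0 at an unadjusted p under 0.05, 0 by DESeq2). Each of these 9 had under 100 counts in every library. The groups overlapped in Hist1h3a, Hist1h3c and Hist1h3h, and whether the clusters differ was not tested.
The 11 H4 genes of the Hist1 cluster ran from −1.17 to −0.55 on the log2 scale. None of the 12 tested H4 genes passed (1 at an unadjusted p under 0.05, edgeR; 0 by DESeq2), and the Hist1 genes had at most 125 counts in a library. Hist1h4i was the lowest, with 84 and 113 counts in the controls and 30 and 43 in the treated libraries. Hist4h4, whose sequence is unique throughout, was the only member with both treated libraries above both controls. It had 151 and 156 counts in the controls and 182 and 191 in the treated libraries, a log2 fold change of 0.52 ± 0.21 that did not pass (adjusted p = 0.184, edgeR). It passed without Cr(VI) replicate 1 (0.68, adjusted p = 3.4e-06, edgeR) and without Cr(VI) replicate 2 (0.37, adjusted p = 0.0160, edgeR). Unlike Hist2h2be, it carries the stem-loop pattern at its end. Hist2h4 had the most counts of the 7 members that were not tested, with 9 and 8 in the controls and 2 and 1 in the treated libraries.

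The share of unique stretches was taken over all transcripts of a gene, including the longer ones of Hist1h2bc and Hist1h2be. Because identical copies share reads, the same counts were made over the 30 genes with at least 50% unique stretches. Of these 23 were tested and 9 fell, with a median log2 fold change of −0.94, and of the 38 other genes 12 fell, with a median of −0.85. In both ranges each tested H2B gene except Hist2h2be had a lower fold change than each H2A, H3 and H4 gene, and all 4 tested H1 genes lay in the range of at least 50%.

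**Figure D4:**
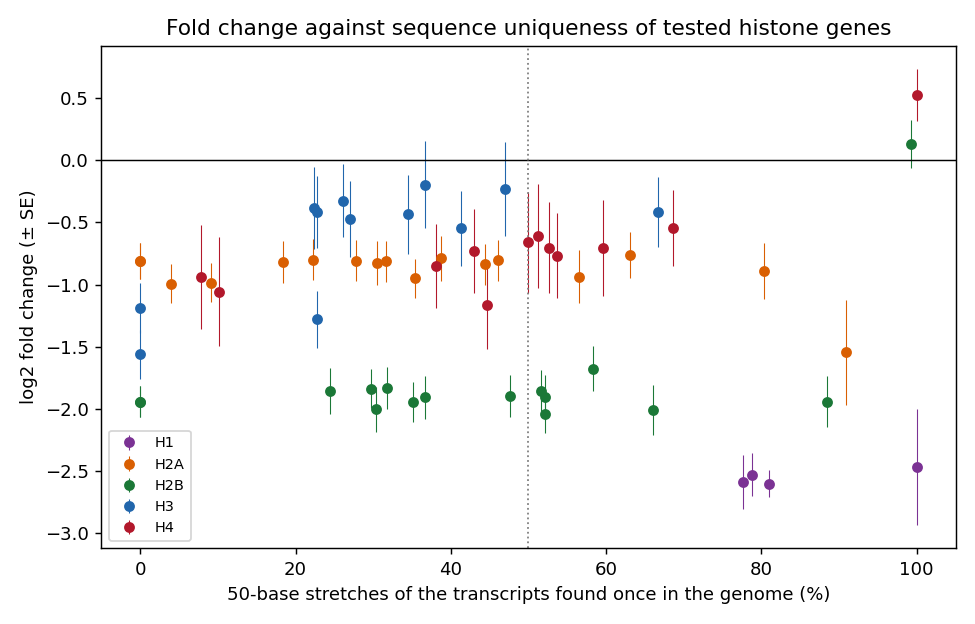
The x axis gives the percentage of a gene's 50-base transcript stretches found once in the genome and the y axis the log2 fold change, 25 µM Cr(VI) over control, with bars of ± 1 SE, for the 61 tested histone genes by class. The dotted line marks 50%, and the H2B genes from the Hist1 cluster lie between −2.04 and −1.68 on both sides of it.

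The replacement histone genes, most of which encode variants made throughout the cell cycle from mostly polyadenylated mRNAs, were counted in the same way. Of 11 such genes, all were tested and 0 passed, against 4.63% of all tested genes (3 at an unadjusted p under 0.05, against 30.7% of all tested genes, edgeR; 1 lower and 2 higher by DESeq2), with a median log2 fold change of 0.12. H3f3a, a gene for histone H3.3, had 10271 and 11574 counts in the controls and 15367 and 15699 in the treated libraries (0.75 ± 0.15, adjusted p = 0.0666, edgeR), and the other H3.3 gene H3f3b changed by 0.11 (adjusted p = 0.661). H2afz, the gene of H2A.Z, changed by 0.06 (adjusted p = 0.833, edgeR). H2afx, whose product is phosphorylated at DNA breaks, had 2979 and 3424 counts in the controls and 1716 and 998 in the treated libraries (−1.02 ± 0.21, adjusted p = 0.0713, edgeR). The linker variant H1f0 had 6023 and 6660 counts in the controls, and 5467 and 1897 in the treated libraries lay far apart (−0.60, adjusted p = 0.410, edgeR). In RPKM, which divides CPM by the exon length in kilobases, Hist1h1c was the highest member, at 277 ± 7.17 RPKM in control and 45.6 ± 1.12 in treated cells, beside 559 and 582 RPKM for H2afz. After Hist1h1c the highest mean RPKM over the 4 libraries belonged to Hist2h2aa1 (61.7), Hist2h2aa2 (57.8), Hist1h2ap (46.4), Hist1h2ao (38.0), Hist1h2bc (31.7), Hist1h2bl (24.6) and Hist3h2a (24.6). This order depends on the annotated exons. Hist1h2ap and Hist1h2ao had equal counts and differ here only by their lengths of 452 and 552 bases. Hist1h2bq and Hist1h2br (13.3 each) were divided by merged exons of 2175 bases, which include their longer transcripts.

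**Figure D5:**
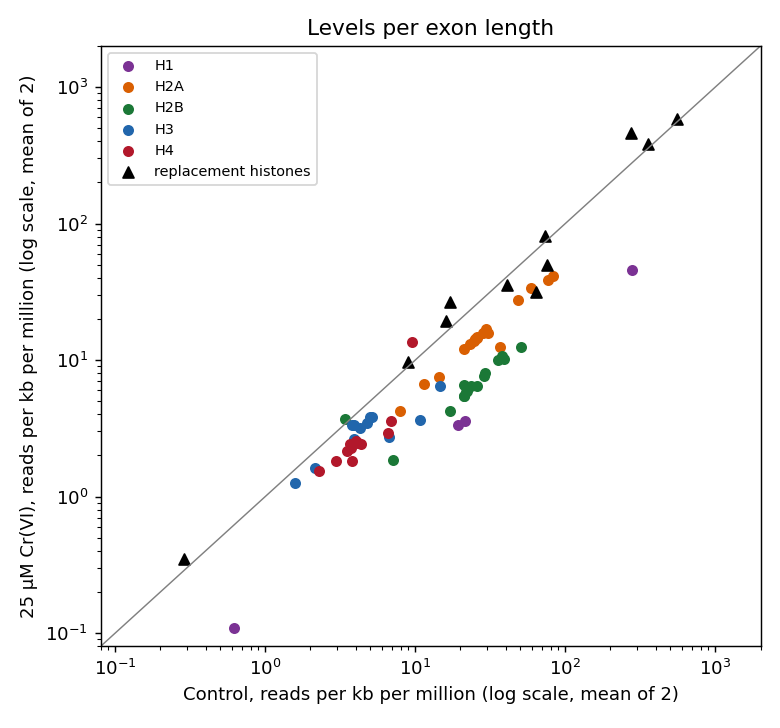
Both axes give RPKM on a log scale, control on the x axis and 25 µM Cr(VI) on the y axis, as means of 2 libraries. Circles are the 61 tested histone genes by class, triangles the 11 replacement histone genes, and the line marks equal levels, with Hist1h1c at 277 and 45.6.

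The genes that make, process and package histone mRNA and protein were counted next, against the same shares of all tested genes (4.63% past the threshold, 30.7% at an unadjusted p under 0.05). Of 28 genes for processing and decay of histone mRNA, 0 passed (5 at an unadjusted p under 0.05, edgeR; 1 lower and 1 higher by DESeq2), with a median of 0.08. Slbp, the stem-loop binding protein, changed by 0.25 (adjusted p = 0.363, edgeR), and Lsm10 and Lsm11, parts of the U7 particle that guides the cut after the stem-loop, by −0.36 (adjusted p = 0.621) and −0.41 (adjusted p = 0.283). Of 17 genes for histone transcription, 1 fell and 0 rose (4 at an unadjusted p under 0.05, edgeR; 1 lower and 1 higher by DESeq2), with a median of −0.09. That gene was E2f2, an E2F factor of S phase genes, with 225 and 279 counts in the controls and 97 and 68 in the treated libraries (−1.38 ± 0.22, adjusted p = 0.0489, edgeR), a call lost with library-size scaling (0.0657) and without either control library (0.252 and 0.355). Npat changed by 0.14 (adjusted p = 0.516, edgeR), and Casp8ap2, which joins NPAT at the histone loci, by −0.13 (adjusted p = 0.724). Of 23 histone chaperone genes, 0 passed (6 at an unadjusted p under 0.05, edgeR; 1 higher by DESeq2), and their median was −0.0005.

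The promoters were searched for 3 sequences on both strands, from 250 bases before to 50 bases after the RefSeq start. TATAAA, the TATA box, stood in 35 of 63 promoters of 62 members (55.6%), against 13.5% of 32788 promoters of other genes. CCAAT stood in 54 (85.7%), against 37.3%, with 3 of the 12 H4 promoters holding it. ATTTGCAT, the octamer bound by OCT1, stood in 14 (22.2%), against 1.70%, and these were 7 H2A and 7 H2B promoters with 0 in H1, H3 and H4. The promoters searched covered 16 of the 19 H2B genes, so the H2B count may be too low. The 14 matches lay at 11 places, since 3 places were counted for both an H2A and an H2B gene that are transcribed away from each other. The place before Hist1h2ac also lies between it and Hist1h2bc, but was counted for Hist1h2ac alone. One of the 3 places counted for both genes is shown because a FAIRE peak covers it. It is read in the direction of Hist1h2bg on GRCm38.p6, with the octamer in capitals.
Hist1h2bg and Hist1h2ae, chr13:23571330-23571359, + strand: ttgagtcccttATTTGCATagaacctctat
The octamer begins 59 bases before the start of Hist1h2bg and 128 bases before that of Hist1h2ae. A match is only a description of the sequence.

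The FAIRE lists may not hold every peak that the authors called. Of the 2945 peaks used here for cells given 25 µM Cr(VI) against their control, 1 had its centre within 1000 bp of the start of a member, and 3 lay inside the clusters, all in Hist1. The Hist1 span is 2219203 bp long, and the centres of the 3 peaks lay 71, 29000 and 232974 bp from the nearest start of a member. How many peaks spans of this length hold elsewhere was not counted. The peak near a member, chr13:23571265-23571393, was 129 bp wide with a score of 58.96, had its centre 71 bp from the start of Hist1h2bg and covered the octamer shown above. It also lay within 1000 bp of the start of Hist1h2ae, so that 2 of the 68 members (2.94%) had a peak this near, against 166 of the 23281 genes of the table with a position (0.713%), and no test was made on this 1 peak. Hist1h2bg fell, with 608 and 698 counts in the controls and 158 and 153 in the treated libraries (−1.83 ± 0.17, adjusted p = 0.0303, edgeR). Hist1h2ae on the other side had 429 and 532 counts in the controls and 247 and 209 in the treated libraries (−0.84 ± 0.16, adjusted p = 0.0646, edgeR). Of the 860 peaks used here for cells kept in 0.5 µM Cr(VI), 0 lay within 1000 bp of a member's start, against 165 of the 23281 genes (0.709%) with one this near. Inside the Hist1 cluster lay 1 peak, chr13:21974129-21974646, with its centre 61256 bp from the start of the nearest member, Hist1h2ah. There was 1 FAIRE library per condition, so these peaks have no replicate check, and no RNA of the cells passaged with 0.5 µM Cr(VI) was used here.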

How the data were processed

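RNA-seq counts per Entrez gene were deposited by the authors for 4 libraries. Per the methods, poly(A) RNA was extracted with a TruSeq kit, and reads were aligned to mm10 with TopHat. The submitters' processing notes also name bcl2fastq, CASAVA 1.8, BWA and DESeq. The counting tool, its annotation, the use of strand and the treatment of reads with several positions are not given in the sources used here. The FAIRE peak score deposited by the authors comes from MACS at default settings on 1 treated against 1 control library; it rises with the −log10 of the MACS p-value and serves here only to filter peaks, and the depth behind it is unknown.

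GeneIDs were matched to RefSeq (GRCm38.p6), and 23305 of 23403 matched. The members and lists were chosen with earlier results of these data known. Genes passing filterByExpr (13619) were tested with edgeR 4.0.16 (R 4.3.3), using TMM factors, the quasi-likelihood test without a block (two-sided), Benjamini-Hochberg adjustment over all tested genes and a threshold of 0.05. Scaling factors from TMM were 1.03 and 0.897 for the treated pair and 1.04 for each control, and the biological coefficient of variation was 0.193. RPKM is TMM-scaled CPM per kilobase of merged RefSeq exons. A 50-base stretch was unique if found once on both strands of the chromosomes. Levels and errors rest on 2 libraries per group.

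Genes were named if among the 12 members with the largest changes past the threshold, the 8 with the highest mean RPKM, the lowest or highest in fold change, or the untested member with the most counts. Of the other lists, genes past the threshold and Slbp, Npat, Casp8ap2, Lsm10, Lsm11, H2afx, H2afz, H3f3a, H3f3b and H1f0 were named. Other members were named after their values were seen. Of 24 chaperone symbols, 1 (Spt2) matched no single gene. Alternatives were a replicate block, library size only, upper-quartile factors, no filter, DESeq2 1.42.0, each library left out, genes with at least 50% unique stretches, and other peak distances and scores. The summed leukocyte markers are not reported here.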

Additional observations from a re-analysis of the deposited data

How the results depend on the processing

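All 21 members called were also called with the replicate block, with library size only, without a filter (23 calls), with DESeq2 and without either treated library. Without a control library, 15 or 16 were called, and upper-quartile scaling kept 19. Between settings the number of members called went from 21 to 32 with the replicate block, 34 with DESeq2 and 9 among genes with at least 50% unique stretches, and from 15 to 59 when 1 library was left out. Calls over all genes went from 631 to 2969 with the replicate block, to 2073 with DESeq2 and to 287 to 10995 when 1 library was left out. With only 1 treated library, the spread comes from the control pair alone and the treated sample is assumed to vary like it, so the high counts rest on 1 residual degree of freedom. Whether the 2 replicate numbers mark pairs of libraries is not stated. The replicate differences of the 2 groups had a correlation of 0.128 over 12013 genes. This cannot settle the question, since the 2 controls hardly differed (r 0.998). No pairing was taken from the numbers in the main test. The median over the members ran from −1.16 (without Cr(VI) replicate 2) to −0.78. Without Cr(VI) replicate 1, Hist1h3a and Hist1h3c were above 0 and Hist2h2be was not.

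Calls in the processing list went from 0 to 3 with the replicate block, 1 with library size only, 2 with DESeq2 and 0 to 26 with 1 library left out. In the transcription list they went from 1 to 2, 0, 2 and 0 to 13 in the same order. In the replacement list they went from 0 to 4 with the block, 3 with DESeq2 and 0 to 9 with 1 library left out, and in the chaperone list to 1 with DESeq2 and 0 to 20. Library size only moved the median of all genes to −0.11 and the class sums to −2.70 (H1), −1.03 (H2A) and −1.91 (H2B). It turned H2afz to −0.063 and H3f3b to −0.0039. Leaving out 1 library at a time, Casp8ap2 ran from −0.46 to 0.14, H2afz from −0.096 to 0.21 and Lsm10 from −1.17 to 0.15, each turned without Cr(VI) replicate 2. Without turning, H1f0 ran from −1.38 to −0.090, Slbp from 0.044 to 0.44, Lsm11 from −0.71 to −0.17, Npat from 0.044 to 0.24 and H2afx from −1.32 to −0.77. A score of at least 100 left 0 peaks near members in the 25 µM list. The cause of these shifts was not tested. Over the alternatives for the genes named by the stated rule, 211 values kept their direction and side of the threshold, 33 passed it in addition, 12 no longer passed and 5 turned. Hist1h2bb and Hist2h3c2, named besides, lost their calls without either control library. Genes with few counts, such as those of H3 and H4 in the Hist1 cluster, allow only wide intervals.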
